A study of Mus musculus with 9 samples.

Results

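The immune checkpoint and phagocytosis-blocking genes described here act where a cell meets a phagocyte or a T cell, and are Cd47, Sirpa, Cd24a, Cd274, Pdcd1lg2, Cd80, Cd86, Havcr2 and Icosl. They are 9 of 27998 genes, chosen by name for this role. The rule uses no measured value, but the choice was made with earlier results of these data known. The values come from 1 single-cell library of cells taken from ascites, the fluid of the peritoneal cavity, of a mouse model made with ID8_def29_vegf ovarian cancer cells, labelled as wild type on the B6 background and with no treatment named. ID8-Def29/Vegf is an ovarian surface epithelial tumour line made to produce Vegf and a defensin. The series also lists bulk libraries of the cultured line, 4 given deferiprone for 12 h and 4 given vehicle, whose deposited columns could not be placed in these groups and were not used here. With 1 library there was no replicate, so no test was made, and each interval is a 95% interval for counting error only.

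Cd47 on a cell is bound by Sirpa on a phagocyte, whose cytoplasmic tail recruits tyrosine phosphatases that hold back engulfment, and Cd24 is bound in mice by Siglecg with a similar outcome. Cd274 (PD-L1) and Pdcd1lg2 (PD-L2) bind the inhibitory T cell receptor Pdcd1, while Cd80 and Cd86 bind Cd28, which activates T cells, and Ctla4, which restrains them. Havcr2 (Tim-3) is a receptor of T cells and of myeloid cells, and Icosl is the ligand of Icos on T cells. Dendritic cells and macrophages are the usual carriers of Cd80 and Cd86.

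Of 737280 barcodes, 6442 had 500 or more unique molecular identifiers (UMIs), 200 or more genes and at most 15% mitochondrial UMIs, and 5353 of these fell into a class by marker counts. The T class held 25 barcodes, the B class 102, the dendritic cell (DC) class 530, the macrophage class 1076 and the tumour-like class 3660, while 1089 were unassigned. Median depth was 792 UMIs in T, 785.5 in B, 1380.5 in DC, 1639.5 in macrophage and 5007 in tumour-like barcodes. The tumour-like class was set by Krt8, Krt18, Krt19, Wt1 and Upk3b, which mesothelial cells of the host also express, so the label does not tell the implanted line from host lining cells. In a check against further markers, 8 DC genes summed to 219.8 CPM (UMIs per 1000000 UMIs of a class) in DC, against 5.25 CPM in macrophages, and 5 macrophage genes to 16707 CPM in macrophages, against 69.6 CPM in tumour-like cells. The macrophage genes also summed to 765 CPM and the tumour-like marker genes to 411 CPM in DC, both above the DC genes there. The 25 T barcodes together held UMIs of all 6 T markers of the gene table, including Cd3d, Cd3e and Cd3g, which define the class. The others were few: Cd2 had 2 UMIs, Lck 4 and Cd28 3. The T barcodes also had 2879 CPM of the myeloid gene Lyz2. Of the 102 B barcodes 15, and of the 530 DC barcodes 24, also met the rule of another class. Haemoglobin genes made up 35385 CPM of B, 12137 CPM of DC, 11641 CPM of macrophage and 1667 CPM of tumour-like UMIs, and their part in the levels below was not tested.

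The members lie on chromosomes 2, 10, 11, 16 and 19 of GRCm38. Cd274 (chr19:29367455-29388095) and Pdcd1lg2 (chr19:29410919-29471161) are neighbours on the plus strand, 22823 bases apart, and each overlaps 1 gene on the opposite strand in GENCODE M21. Cd47 (chr16:49800533-49915010), Cd80 (chr16:38455561-38496335) and Cd86 (chr16:36603869-36666081, minus strand) share chromosome 16. Sirpa lies at chr2:129592835-129632228, Cd24a at chr10:43578284-43584265, Havcr2 at chr11:46454935-46481255 and Icosl at chr10:78069302-78083913, all on the plus strand. RefSeq promoter windows, 250 bases before to 50 after a transcript start on GRCm38.p6, were found for 6 of the 9 members. Missing from the table were Sirpa, Cd24a and Cd86. The windows below are shown because they run from 3 to 35 CpG, the lowest and highest numbers among the members' windows shown, and CpG dinucleotides are in capitals. They are, in the order given, chr16:49855404-49855703, chr10:78069118-78069417, chr19:29367188-29367487 and chr11:46454681-46454980, all on the plus strand.
Cd47: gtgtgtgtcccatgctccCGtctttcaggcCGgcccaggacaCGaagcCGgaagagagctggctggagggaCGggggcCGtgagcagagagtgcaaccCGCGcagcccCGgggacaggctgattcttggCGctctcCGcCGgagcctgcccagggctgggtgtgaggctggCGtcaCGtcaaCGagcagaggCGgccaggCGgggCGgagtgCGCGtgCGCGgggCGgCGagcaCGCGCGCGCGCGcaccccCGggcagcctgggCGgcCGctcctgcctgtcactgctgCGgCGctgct
Icosl: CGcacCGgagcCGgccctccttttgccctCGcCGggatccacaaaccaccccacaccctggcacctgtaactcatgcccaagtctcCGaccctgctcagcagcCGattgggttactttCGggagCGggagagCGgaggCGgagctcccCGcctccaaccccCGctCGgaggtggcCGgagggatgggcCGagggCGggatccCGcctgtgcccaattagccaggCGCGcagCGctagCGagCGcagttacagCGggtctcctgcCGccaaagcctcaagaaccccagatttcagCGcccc
Cd274: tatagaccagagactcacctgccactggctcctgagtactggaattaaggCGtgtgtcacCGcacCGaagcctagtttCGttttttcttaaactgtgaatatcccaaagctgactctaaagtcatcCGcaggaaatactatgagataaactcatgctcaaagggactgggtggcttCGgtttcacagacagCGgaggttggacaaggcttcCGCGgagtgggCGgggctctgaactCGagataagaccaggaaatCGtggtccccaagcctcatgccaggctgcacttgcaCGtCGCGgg
Havcr2: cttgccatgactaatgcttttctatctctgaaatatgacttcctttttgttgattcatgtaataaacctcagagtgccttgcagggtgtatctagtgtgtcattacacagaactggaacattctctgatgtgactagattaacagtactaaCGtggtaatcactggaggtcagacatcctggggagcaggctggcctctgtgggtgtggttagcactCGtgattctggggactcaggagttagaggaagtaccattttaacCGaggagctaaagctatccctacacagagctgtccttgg

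The Cd47 window held 35 CpG, a number reached by 6.95% of 32851 mouse promoter windows, and the Icosl window held 26, reached by 16.9%. The Cd274 window held 15 (reached by 34.6%), and those of Havcr2, Cd80 and Pdcd1lg2 held 3 each, with 31.4% of windows having as few, while the median window held 7. The motif GGGCGG, read on either strand, occurred 3 times in the Cd47 window and once in each of the Cd274 and Icosl windows, and 35.7% of all windows held it. GAGGAA occurred once in each of the Pdcd1lg2 and Havcr2 windows (28.3% of all windows) and TATAAA once in that of Cd80 (13.6%).

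Cd47, the signal that a phagocyte reads, was detected in all 5 classes, at levels between 100.2 and 167 CPM. It stood at 167 CPM in T (4 UMIs, 45.5 to 427), 118 CPM in B (15 UMIs, 66.1 to 195), 163 CPM in DC (131 UMIs, 136 to 193), 100.2 CPM in macrophages (191 UMIs, 86.5 to 115) and 104 CPM in tumour-like cells (2073 UMIs, 99.3 to 108). Macrophage and tumour-like levels differed by less than counting error, with a ratio of 0.967 (0.829 to 1.12). The level in DC was 1.62 times that in macrophages (1.29 to 2.04) and 1.57 times that in tumour-like cells (1.31 to 1.87), both below 2-fold. The interval of the T over macrophage ratio ran from 0.449 to 4.33 and that of B over macrophage from 0.647 to 1.99, so no order could be given for T and B. Between T and macrophages 17.3% of 5478 genes were at least 2-fold higher and 5.53% at least 2-fold lower in T, and 2752 had 0 UMIs in T. Of the 3 members compared, Sirpa had a ratio of 0.488 on 1 T UMI, with an interval that included 1. Free RNA, the RNA in every droplet from burst cells, was estimated from genes foreign to a class. The estimate was 53.9% of UMIs in B, 23.5% in DC, 13.6% in macrophages and 5.31% in tumour-like cells. The 10 B and 22 DC barcodes that also met the tumour-like rule were left in, so it is not of free RNA alone. Taken at these shares, free RNA would give 40.5 CPM of Cd47 in B, 17.7 CPM in DC, 10.2 CPM in macrophages and 3.99 CPM in tumour-like cells.

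**Figure D1:**
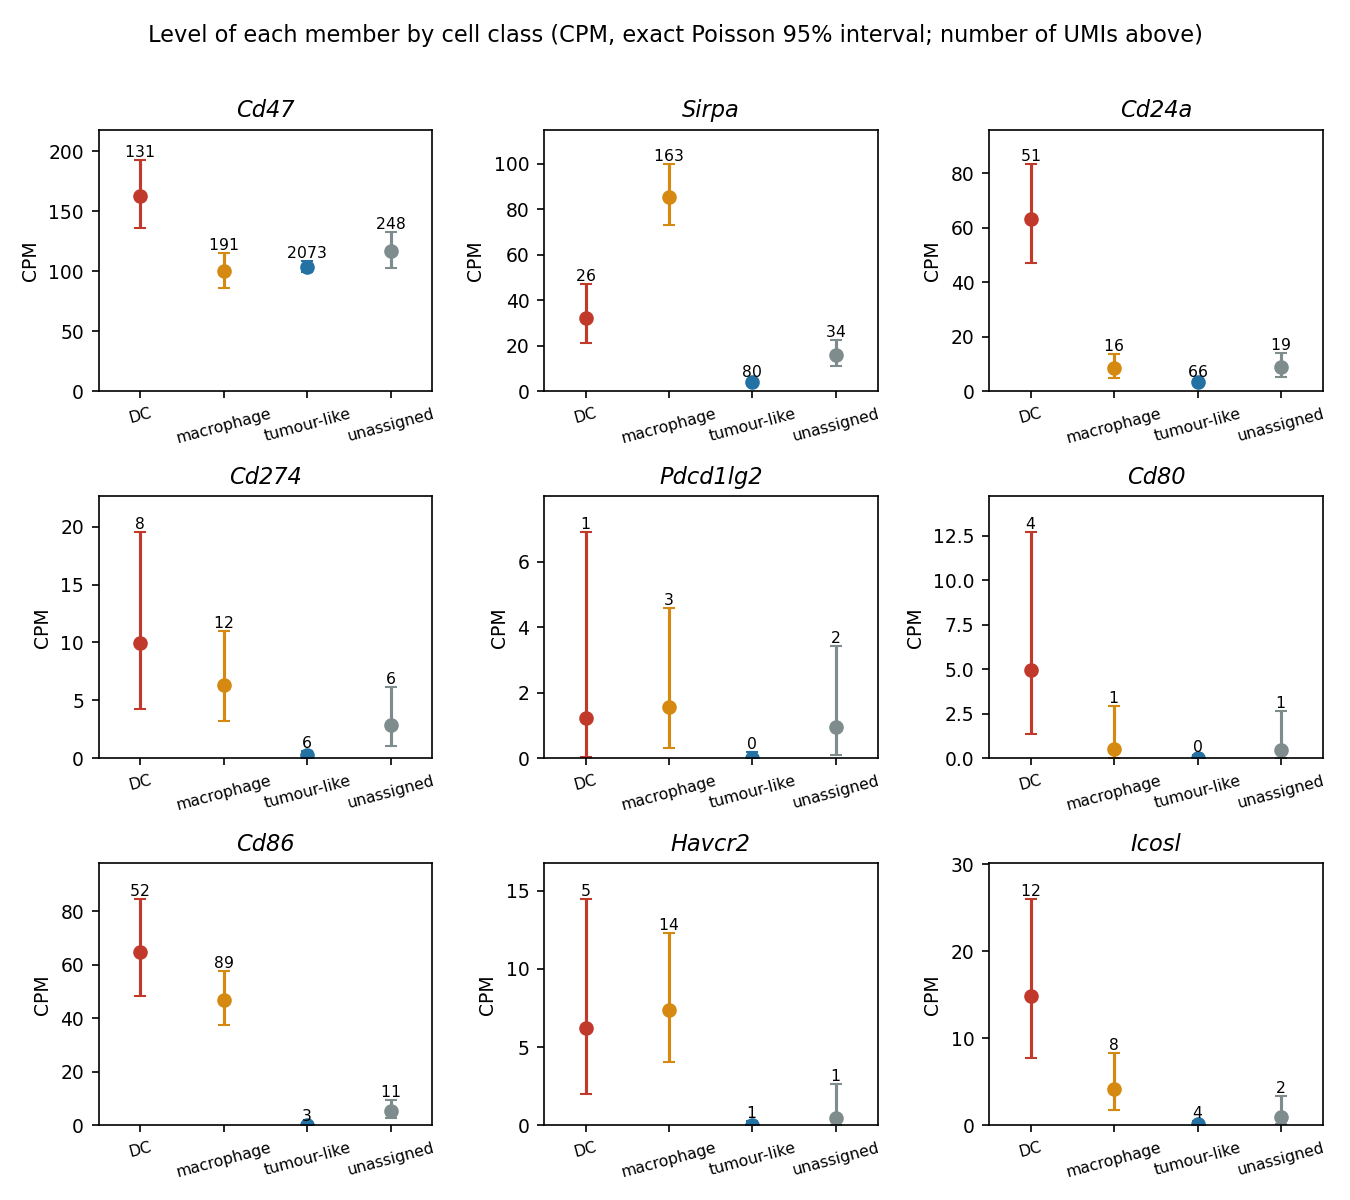
Level of each member in CPM (vertical axis, linear from 0) in DC, macrophage, tumour-like and unassigned barcodes of the 1 library; points are sums over the class, bars exact Poisson 95% intervals, and numbers above the bars count UMIs. Cd47 is at 100.2 CPM or more in each of these classes, whereas the other 8 members are at or below 4.0 CPM in tumour-like cells; T and B barcodes are given in the text.

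Without regard to depth, Cd47 had a UMI in 20% of DC, 16.1% of macrophages and 40.9% of tumour-like cells. After each cell was thinned to 1000 UMIs, which left out 114 DC, 126 macrophages and 50 tumour-like cells, the shares were 13.7% of DC (10.5 to 17.4%), 9.16% of macrophages (7.40 to 11.2%) and 10.2% of tumour-like cells (9.20 to 11.2%). The higher share of tumour-like cells was thus not seen at equal depth. Among the 1496 tumour-like cells with Cd47, 1046 had 1 UMI and 1 had 6, the highest number of any member in a cell. Because Cd47 occurs in every class, no class served as a negative for it.

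**Figure D2:**
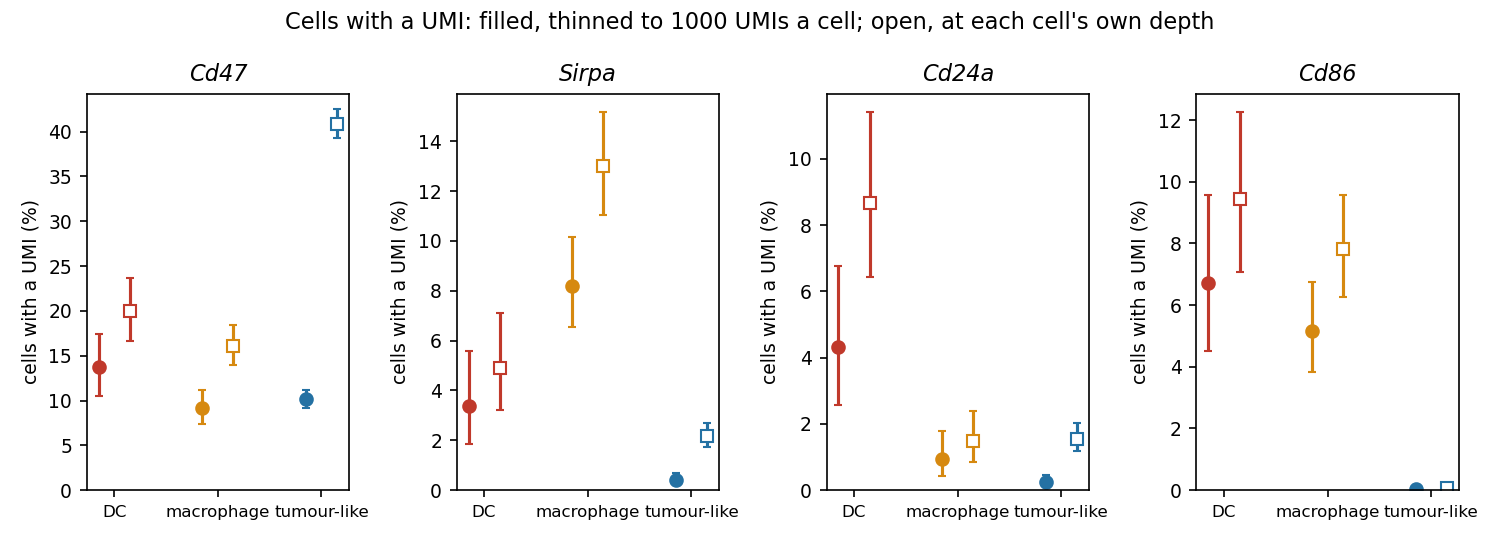
Percent of cells with a UMI of Cd47, Sirpa, Cd24a and Cd86 (vertical axes from 0) in DC, macrophages and tumour-like cells, with exact Clopper-Pearson 95% intervals; filled circles are cells thinned to 1000 UMIs and open squares cells at their own depth. For Cd47 the tumour-like share is 40.9% at own depth and 10.2% after thinning, where it overlaps that of macrophages.

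Within the tumour-like class Cd47 varied little. Cycling cells, with 3 or more UMIs of Top2a, Mki67, Birc5, Cdk1 and Ccnb1, had 109 CPM of Cd47 (174 UMIs in 194 cells), against 104 CPM in 3407 non-cycling cells (1876 UMIs), a ratio of 1.05 (0.891 to 1.22). Of 11381 genes, 5.61% were at least 2-fold higher and 7.19% at least 2-fold lower in cycling cells, and of the 3 members compared Sirpa had a ratio of 0.452 on 3 cycling UMIs, with an interval that included 1. Gene programmes of these cells, 5 in all, were then used, each by splitting off the 732 cells with the largest share of its UMIs, a split chosen after seeing the data. The level was 117 CPM in the cells highest for the glutathione transferases Gstm1 and Gstm2, against 100.5 CPM in the others, a ratio of 1.17 (1.05 to 1.30). Cells highest for Abhd2, Pam and Spry2 had 118 CPM, against 100.7 CPM in the others, also a ratio of 1.17 (1.05 to 1.31). For the programmes of Lgals2, C3 and Abcb1b (ratio 0.990), Wfdc18, Gng13 and Sncg (1.09) and Defb19, Defb36 and Actr3b (1.06), the interval of the ratio included 1. The deeper tumour-like cells had 100.8 CPM of Cd47, against 109.8 CPM in the shallower ones, a ratio of 0.918 (0.838 to 1.01). Median depth was 4312.5 UMIs in the cells highest for Abhd2, Pam and Spry2, against 5168.5 in the others, and the part of depth in that difference was not tested.

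Sirpa, the phagocyte receptor of Cd47, was highest in macrophages. It stood at 32.3 CPM in DC (26 UMIs, 21.1 to 47.3), 85.5 CPM in macrophages (163 UMIs, 72.9 to 99.7) and 4.0 CPM in tumour-like cells (80 UMIs, 3.17 to 4.98), with 1 UMI in T and 3 in B. The macrophage over tumour-like ratio was 21.4 (16.3 to 28.3) and the DC over tumour-like ratio 8.07 (4.97 to 12.7), while the DC over macrophage ratio was 0.378 (0.239 to 0.573). DC and macrophages thus stood apart for the receptor in the direction opposite to its ligand. For comparison, 13.2% of the 11866 genes with 20 or more UMIs over macrophages and tumour-like cells were at least 2-fold higher in macrophages, and 9.5% of 11664 genes were at least 2-fold higher in DC than in tumour-like cells. At least 2-fold lower were 33.7% of genes in macrophages and 31.7% in DC, each against tumour-like cells. Only 4 of the 9 members had enough UMIs to enter each of these comparisons, and of them 3 were at least 2-fold higher and none lower. Of 6545 genes compared between DC and macrophages, 17.6% were at least 2-fold lower and 8.59% at least 2-fold higher in DC.

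At equal depth Sirpa had a UMI in 3.37% of DC (4.91% before thinning), 8.21% of macrophages (13%) and 0.416% of tumour-like cells (2.19%). Free RNA would give 0.347 CPM of Sirpa in tumour-like cells, or 0.532 CPM from barcodes of 100 to 200 UMIs in place of 1 to 50, both below the lower bound of the measured 4.0 CPM. The profile of 1 to 50 UMIs held 2 UMIs of Sirpa, and that of 100 to 200 UMIs held 50. The 80 tumour-like UMIs lay in 80 different cells. Tumour-like cells with 3 or more UMIs of the class II genes that define the DC class had 3.70 CPM of Sirpa, against 4.22 CPM in those with fewer, a ratio of 0.878 (0.541 to 1.40).

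Macrophages differed among themselves in Sirpa. The 787 cells with 3 or more UMIs of Pf4, Arg1 and Saa3 had 92.2 CPM (141 UMIs, 77.6 to 109), against 51.0 CPM in the 224 cells with at most 1 (15 UMIs, 28.5 to 84.0), a ratio of 1.81 (1.06 to 3.32). Cd47 did not follow: 98.8 CPM in the Pf4/Arg1/Saa3-high cells, against 112 CPM in the low ones, with a ratio of 0.881 (0.601 to 1.33). Of 5297 genes compared, 11.9% were at least 2-fold higher and 5.76% at least 2-fold lower in the high cells, and of the 3 members compared none was past 2-fold. Median depth was 1829 UMIs in the high cells, against 1284 in the low ones. Within the shallower macrophages the Sirpa ratio was 2.30 (1.12 to 5.17) and within the deeper ones 1.24 (0.516 to 3.91), where 36 low cells held 5 UMIs.

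Cd24a, a small glycosylated surface protein, was highest in B and DC among the classes with a UMI of it. Outside the classes, Cd24a stood at 145.5 CPM (71 UMIs) in haemoglobin-rich barcodes with under 200 genes, which the filter left out. It stood at 102 CPM in B (13 UMIs, 54.5 to 175), 63.3 CPM in DC (51 UMIs, 47.2 to 83.3), 8.40 CPM in macrophages (16 UMIs, 4.80 to 13.6) and 3.30 CPM in tumour-like cells (66 UMIs, 2.55 to 4.20), with 0 UMIs in T, which allows up to 125 CPM. The ratio was 12.2 (5.40 to 27.0) for B over macrophages, 7.54 (4.23 to 14.2) for DC over macrophages, 19.2 (13 to 28.1) for DC over tumour-like cells and 2.54 (1.37 to 4.44) for macrophages over tumour-like cells. Between B and macrophages, 14.4% of 5702 genes were at least 2-fold higher in B and 17.9% at least 2-fold lower. Of the 4 members compared, 1 was at least 2-fold higher in B, Cd24a, and 2 were at least 2-fold lower. The lower ones were Sirpa, with a ratio of 0.276 (0.0564 to 0.822) on 3 B UMIs, and Cd86, whose interval included 1. Without the 15 B barcodes that met another class's rule, Cd24a in B was 150 CPM (11 UMIs, 74.8 to 268) and Cd47 177 CPM (13 UMIs, 94.2 to 303).

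Within DC, the 35 barcodes with 2 or more UMIs of the conventional DC1 genes Xcr1, Clec9a, Itgae and Naaa had 171 CPM of Cd24a (13 UMIs in 10 cells), against 52.1 CPM in the other 495 DC (38 UMIs), a ratio of 3.29 (1.61 to 6.32). Sirpa, used in mice to mark conventional DC2, had 0 UMIs in these 35 barcodes, which allows up to 39.6 CPM, against 35.6 CPM in the other DC, so a difference was not detectable at this depth. Their Cd47 stood at 224 CPM, against 156 CPM in the other DC, a ratio of 1.43 (0.808 to 2.40). Median depth was 2141 UMIs in the conventional DC1 barcodes, against 1325 in the others. In a second subset, 11 DC with 2 or more UMIs of the migratory genes Ccr7, Fscn1, Ccl22 and Cacnb3, Cd47 reached 472 CPM on 8 UMIs, against 156 CPM in the other 519 DC, a ratio of 3.03 (1.28 to 6.16), while 15.9% of 2856 genes were at least 2-fold higher and 4.13% at least 2-fold lower in migratory DC. Of the 2856 genes, 1165 had 0 UMIs in migratory DC, and the median ratio over all was 0.716 with these at 0 and 2.12 with them at 3 UMIs. These 11 cells also held 2 of the 8 DC UMIs of Cd274.

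**Figure D3:**
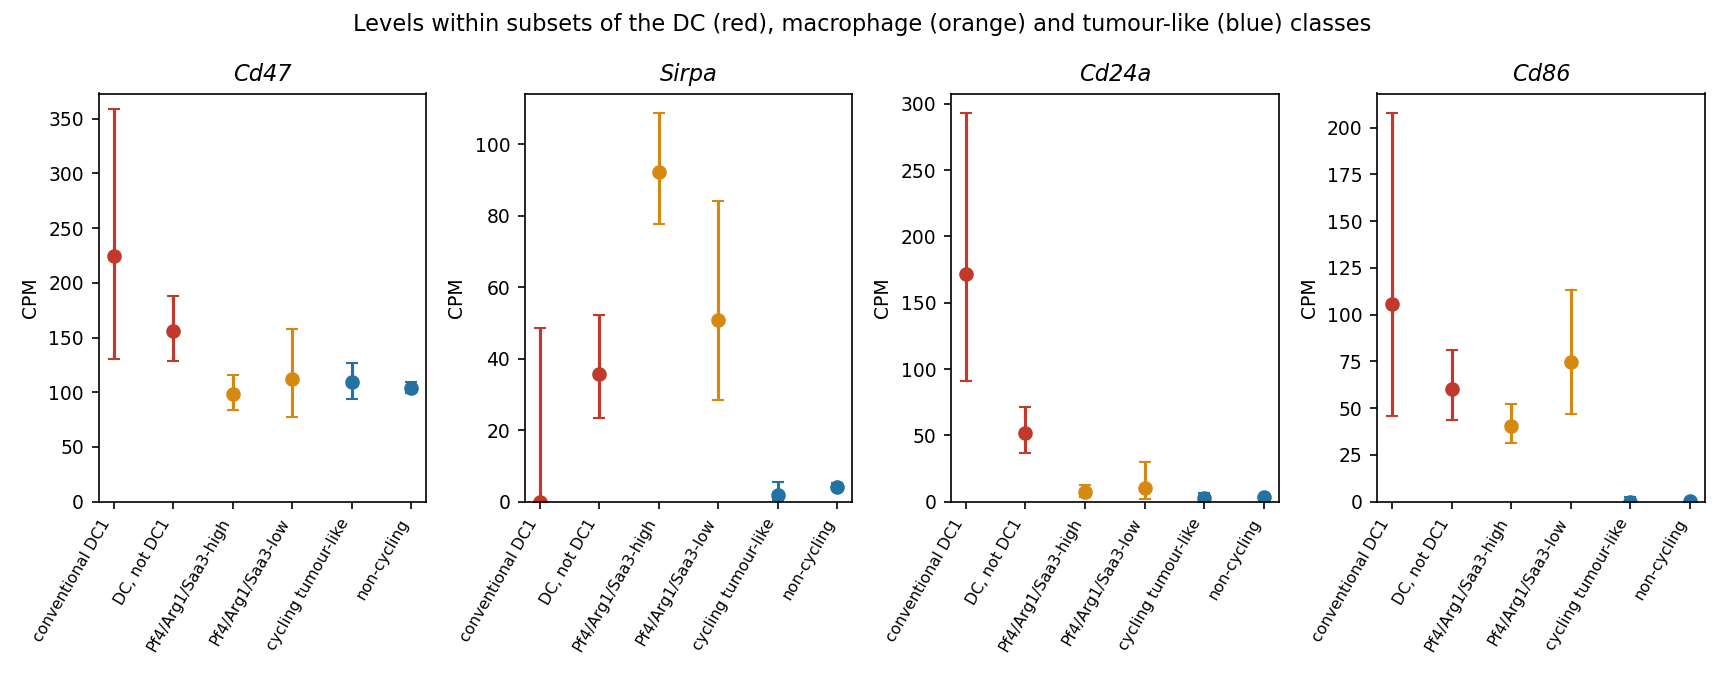
Levels in CPM (vertical axes from 0, exact Poisson 95% intervals) of Cd47, Sirpa, Cd24a and Cd86 in conventional DC1 and the other DC (red), Pf4/Arg1/Saa3-high and -low macrophages (orange) and cycling and non-cycling tumour-like cells (blue). Cd24a is 171 CPM in conventional DC1 and 52.1 CPM in the other DC, and Sirpa is 92.2 CPM in Pf4/Arg1/Saa3-high and 51.0 CPM in -low macrophages.

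In tumour-like cells the 66 Cd24a UMIs came from 57 cells, and free RNA would give 0.347 CPM, or 0.447 CPM by the second profile. The share of cells with a UMI, thinned, was 4.33% of DC (8.68% before thinning), 0.947% of macrophages (1.49%) and 0.249% of tumour-like cells (1.56%). The cells highest for Gstm1 and Gstm2 held 2 of the 66 UMIs, 0.527 CPM (0.0638 to 1.90), against 3.95 CPM in the others, a ratio of 0.133 (0.0158 to 0.501). For the other 4 programmes the interval of the Cd24a ratio included 1. Cd47 was 1.17 times as high in these Gstm1- and Gstm2-high cells, and also in the cells highest for Abhd2, Pam and Spry2. In the latter the Cd24a ratio was 0.860 (0.391 to 1.70).

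Among the unassigned barcodes, Cd24a was higher in those rich in haemoglobin. Of these barcodes, the 77 with 20 or more haemoglobin UMIs had 56.6 CPM of Cd24a (7 UMIs), against 6.02 CPM in the other 1012 (12 UMIs), a ratio of 9.40 (3.14 to 25.9). In the same barcodes Cd47 stood at 72.8 CPM, against 120 CPM, a ratio of 0.607 (0.274 to 1.17). Cd24 is a known surface antigen of erythroid precursors. Within DC, Cd24a stood at 46.8 CPM in the 11 barcodes with 20 or more haemoglobin UMIs (1 UMI), against 63.8 CPM in the 519 with fewer, a ratio of 0.733 (0.0182 to 4.28). Within B it stood at 119 CPM in the 5 such barcodes (1 UMI), against 101 CPM in the 97 with fewer, a ratio of 1.18 (0.0275 to 7.94).

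Cd86 was higher in DC and macrophages than in tumour-like cells. It stood at 64.6 CPM in DC (52 UMIs, 48.2 to 84.7), 46.7 CPM in macrophages (89 UMIs, 37.5 to 57.5) and 0.150 CPM in tumour-like cells (3 UMIs, 0.0309 to 0.438). In B it stood at 15.7 CPM (2 UMIs, 1.91 to 56.9), and 0 UMIs in T allow up to 125 CPM. The B over macrophage ratio was 0.337 (0.0402 to 1.25), so T and B could not be placed against macrophages. The DC over macrophage ratio of 1.38 (0.963 to 1.97) left no order between the 2 classes. The macrophage over tumour-like ratio was 311 (103 to 1538) and the DC over tumour-like ratio 430 (139 to 2155), and both rest on the 3 tumour-like UMIs. Without barcodes of more than 1 class, 1 tumour-like UMI remained and the ratios were 922 for macrophages and 1403 for DC. Free RNA would give 0.149 CPM of Cd86 in tumour-like cells by the profile of 100 to 200 UMIs, close to the measured 0.150 CPM, while the profile of 1 to 50 UMIs held 0 UMIs of Cd86. The part of free RNA in the 3 tumour-like UMIs was not tested. At equal depth, 6.73% of DC (9.43% before thinning), 5.16% of macrophages (7.81%) and 0.0277% of tumour-like cells (0.0820%) had a UMI.

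**Figure D4:**
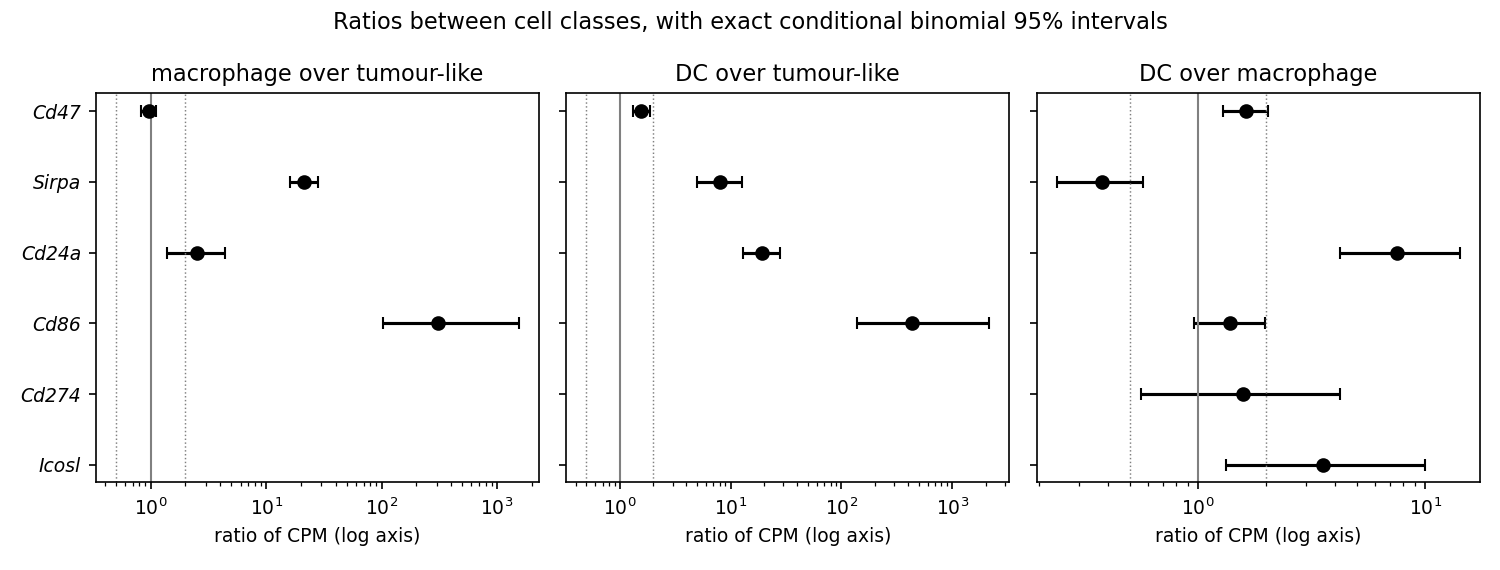
Ratios of CPM on log axes for macrophages over tumour-like cells, DC over tumour-like cells and DC over macrophages, with exact conditional binomial 95% intervals, for members with 20 or more UMIs over the 2 classes; the solid line marks 1 and the dotted lines 2-fold. Cd47 lies between 0.967 and 1.62 in the 3 panels, Sirpa is below 1 and Cd24a above 1 in DC over macrophages.

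Cd86 and Sirpa ran in opposite directions within macrophages. Cd86 was 40.6 CPM in Pf4/Arg1/Saa3-high cells (62 UMIs), against 74.7 CPM in the low cells (22 UMIs), a ratio of 0.543 (0.329 to 0.927). It was also lower in the deeper macrophages, at 36.8 CPM, against 65.6 CPM in the shallower ones, a ratio of 0.561 (0.362 to 0.871). Within the shallower macrophages the ratio of high over low cells was 0.576 (0.296 to 1.12), while within the deeper ones it was 2.53 (0.431 to 102), where the 36 low cells held 1 UMI. Of all macrophages, 12 held UMIs of Sirpa and Cd86, 30 of Sirpa and Cd47, and 10 of Cd47 and Cd86.

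The ligands of Pdcd1 were sparse. Cd274 had 32 UMIs in 32 kept cells, of which 8 were in DC (9.94 CPM, 4.29 to 19.6), 12 in macrophages (6.30 CPM, 3.25 to 11), 6 in tumour-like cells (0.300 CPM, 0.110 to 0.653) and 6 in unassigned barcodes. The macrophage and tumour-like intervals did not overlap, and the DC over macrophage ratio of 1.58 (0.560 to 4.20) included 1. Pdcd1lg2, the neighbouring gene, had 7 UMIs, of which 1 was in B, 1 in DC, 3 in macrophages, 2 in unassigned barcodes and 0 in tumour-like cells, where 0 UMIs allow up to 0.150 CPM. The gene on the strand opposite to Pdcd1lg2, A930007I19Rik, had 91 UMIs, and the sources used here do not state whether counting used strand, so the values of this pair are uncertain. Neither ligand had a UMI in T.

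The co-stimulatory ligands other than Cd86 were as sparse. Cd80 had 6 UMIs, of which 4 were in DC (4.97 CPM, 1.35 to 12.7), 1 in macrophages and 0 in tumour-like cells. Icosl had 25 UMIs and stood at 14.9 CPM in DC (12 UMIs, 7.70 to 26.0), 4.20 CPM in macrophages (8 UMIs, 1.81 to 8.27) and 0.200 CPM in tumour-like cells (4 UMIs, 0.0545 to 0.512). Its DC over macrophage ratio was 3.55 (1.33 to 10.0). In the DC over macrophage comparison 6 members had 20 or more UMIs, of which Cd24a and Icosl were at least 2-fold higher and Sirpa at least 2-fold lower in DC, beside the 8.59% and 17.6% of all genes given above.

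Havcr2, the receptor, had 20 UMIs in kept cells, 1 to a cell. It stood at 6.21 CPM in DC (5 UMIs, 2.02 to 14.5), 7.35 CPM in macrophages (14 UMIs, 4.02 to 12.3) and 0.0500 CPM in tumour-like cells (1 UMI, in a barcode that also met the DC rule). The 25 T barcodes had no UMI of Havcr2, which allows up to 125 CPM, so the T cell role of this receptor was out of reach of these data.

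**Figure D5:**
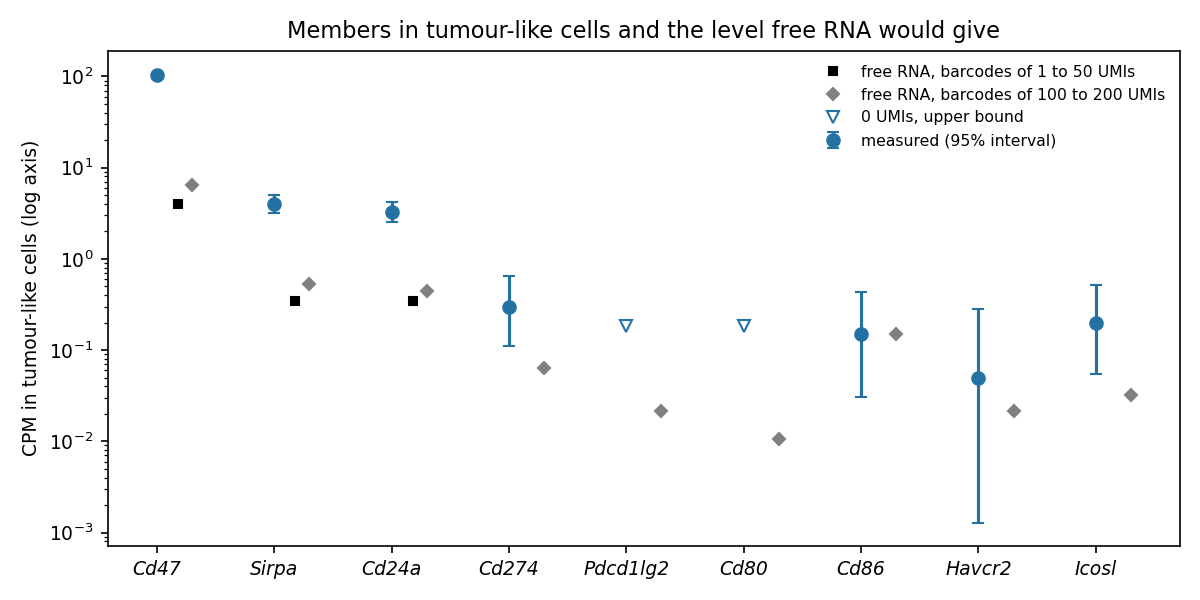
Members in tumour-like cells in CPM on a log axis: blue circles are measured levels with exact Poisson 95% intervals, open triangles the upper bound for 0 UMIs, black squares and grey diamonds the level free RNA would give by the profiles of barcodes with 1 to 50 and 100 to 200 UMIs. The intervals of Cd47, Sirpa and Cd24a lie above both estimates, and those of Cd274 (6 UMIs) and Icosl (4 UMIs) above the second. Cd86 lies at the second one, and the interval of Havcr2 (1 UMI) includes it. For Icosl the second estimate is 0.0319 CPM. Without barcodes of more than 1 class, Icosl had 3 UMIs and a lower bound of 0.0312 CPM. The estimates carry no interval. The second profile held 6 UMIs of Cd274 and 3 of Icosl, and the first held 2 each of Sirpa and Cd24a. A square is missing where the first profile had 0 UMIs. Triangles stand at the exact Poisson bound of 0.184 CPM.

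Few cells had UMIs of several members. At least 1 member was found in 38.7% of DC (205 cells), 35.1% of macrophages (378 cells) and 43.0% of tumour-like cells (1575 cells), at the depth each class had. At least 2 members were found in 9.06% of DC (48 cells), 6.13% of macrophages (66 cells) and 1.94% of tumour-like cells (71 cells). The tumour-like pairs were mostly Cd47 with Sirpa (33 of 80 cells with Sirpa) or with Cd24a (33 of 57 cells with Cd24a). Among all tumour-like cells, 40.9% had Cd47.

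Partners of the phagocytosis axis were read from a list of 11 genes, all with 20 or more UMIs in kept cells. Of the 10 that could be compared between macrophages and tumour-like cells, 6 were at least 2-fold higher in macrophages and none lower. Over all genes 13.2% were higher and 33.7% lower. The median ratio was 20.2 against 0.720 over all genes, where a gene at 0 UMIs was set to 3 (0.668 with macrophage zeros kept). Of the 10 compared between DC and macrophages, 2 were higher and 3 lower in DC, beside 8.59% and 17.6% of all genes. Their median ratio was 0.710 against 0.896 over all genes. The 3 of the list with most UMIs were the chaperone Calr, its phagocyte receptor Lrp1 and the phosphatase Ptpn11. Calr stood at 153 CPM in DC, 230 CPM in macrophages and 166 CPM in tumour-like cells. Lrp1 stood at 22.4 CPM in DC, 135 CPM in macrophages and 65.5 CPM in tumour-like cells. Ptpn11 stood at 23.6 CPM in DC, 16.3 CPM in macrophages and 27.5 CPM in tumour-like cells. Siglecg, the mouse receptor of Cd24, was named after its values were seen: it stood at 94.5 CPM in B (12 UMIs), 58.4 CPM in DC (47 UMIs), 0.525 CPM in macrophages (1 UMI) and 0.350 CPM in tumour-like cells (7 UMIs). Cd24a and its receptor thus peaked in the same classes, and in the 46 DC with a Siglecg UMI Cd24a stood at 76.4 CPM, against 62.2 CPM in the other 484, a ratio of 1.23 (0.381 to 3.08).

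Of 8 checkpoint and co-stimulatory receptors, 2 had 20 or more UMIs. The 3 with most UMIs were Lag3, Cd28 and Pdcd1. Lag3, an inhibitory receptor of T cells, had 0 UMIs in T, 5 in DC, 1 in macrophages and 204 in tumour-like cells, where it stood at 10.2 CPM (8.85 to 11.7). Lag3 lies at chr6:124904361-124911705, 1975 bases from Ptms on the same strand, and Ptms stood at 283 CPM in tumour-like cells. Of the 196 tumour-like cells with Lag3, 158 also had Ptms. Ptms had 5655 UMIs over the 3660 tumour-like cells. The share of all these cells with Ptms was not taken, so the 158 cannot be set against it. Whether the Lag3 UMIs are reads of the neighbour was not tested. Pdcd1, the receptor of Cd274, had 15 UMIs in tumour-like cells (0.750 CPM) and 0 in T, B, DC and macrophages. Cd28, the receptor of Cd80 and Cd86, had 3 UMIs in T, 5 in DC, 10 in macrophages and 3 in tumour-like cells.

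Of 12 other ligands and modifiers, 9 had 20 or more UMIs. Between macrophages and tumour-like cells all 9 could be compared, and 6 were at least 2-fold higher and none lower in macrophages. Over all genes 13.2% were higher and 33.7% lower. The median ratio was 2.86 against 0.720 over all genes. Lgals9, a ligand of Havcr2, stood at 13.7 CPM in DC, 79.2 CPM in macrophages and 28.1 CPM in tumour-like cells. Vsir (VISTA), an inhibitory ligand of myeloid cells, stood at 32.3 CPM in DC, 154 CPM in macrophages (293 UMIs) and 0.850 CPM in tumour-like cells. Cmtm6, which keeps PD-L1 protein at the surface, stood at 24.8 CPM in DC, 24.1 CPM in macrophages and 8.45 CPM in tumour-like cells.

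The genes most like each member over 8 disjoint classes and subsets were sought among 7010 genes with 200 or more UMIs, by the Pearson correlation of log2(CPM + 20). The points share 1 library and differ in depth, so the values are descriptions. Itpr1 (0.980), Ttc39b (0.964) and Rpl14 (0.964) were most like Cd47, and Ccr1 (0.991), Slc43a2 (0.970) and Ms4a6b (0.969) most like Sirpa. Letm1 (0.979), Plscr1 (0.967) and Rpl6l (0.967) were most like Cd24a, and Tm6sf1 (0.993), Map3k8 (0.987) and Actr3 (0.986) most like Cd86. Ccr1, a chemokine receptor, stood at 28.3 CPM in DC other than conventional DC1, 95.2 CPM in Pf4/Arg1/Saa3-high macrophages, 48.3 CPM in low macrophages and 0.336 CPM in non-cycling tumour-like cells, the order that Sirpa had.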

How the data were processed

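The values are UMI counts per gene and barcode of 1 10x Genomics library, deposited by the authors as a matrix of 27998 genes and 35733776 UMIs. It holds every barcode, cells or not. The aligner and build were not given in the sources used here. The members, companion gene lists, classes and splits were chosen with earlier results of these data known.

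Barcodes were filtered and classed by marker counts with Python 3.11.15, numpy 2.4.6, scipy 1.17.1 and pandas 2.3.3. Tumour-like barcodes had 3 or more UMIs of Krt8, Krt18, Krt19, Wt1 and Upk3b and at most 1 of C1qa, C1qb and C1qc, macrophages the reverse, T barcodes 2 or more of Cd3d, Cd3e and Cd3g, B barcodes 2 or more of Cd79a and Cd79b, and DC at least 1% of UMIs from H2-Aa, H2-Ab1, H2-Eb1 and Cd74 with at most 1 C1q UMI and 0 of Cd79a and Cd79b. Scrublet (scanpy 1.11.5) marked 87 barcodes (1.35%) as doublets, which were kept and removed only as an alternative. Counts were summed per class and given as CPM with exact Poisson intervals, shares with exact Clopper-Pearson intervals and ratios with exact conditional binomial intervals, all 95% and for counting error only. A ratio was called at 2-fold among genes with 20 or more UMIs over both classes. The ratios, their intervals and the 2-fold call were tested on simulated data, and the other steps were not. A count of 0 allows up to 3 counts. Free RNA was scaled from barcodes with 1 to 50 UMIs (183846 barcodes, 306235 UMIs) or 100 to 200 UMIs (58272 barcodes). The genes named were the 9 members, the 3 genes with most UMIs of each companion list, and the 3 genes most like each member with 50 or more UMIs. The 8 columns of the bulk count table matched no sample label and were left out.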

Additional observations from a re-analysis of the deposited data

Results flagged for a closer look

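Barcodes outside the cell filter also held members. In 519 barcodes with more than 15% mitochondrial UMIs (median 19.5%, median depth 1095 UMIs), Cd47 stood at 181.7 CPM (151.7 to 215.9; 129 UMIs), above the 4.23 CPM that a count of 0 allows. Per 1000000 UMIs of genes that are not mitochondrial, Cd47 was 230 in these barcodes (192 to 273), against 108 in tumour-like cells (103 to 112). The tumour-like marker genes summed to 2579 CPM and the C1q genes to 159 CPM in these barcodes, and the cause of the higher Cd47 was not tested.

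In 474 barcodes with 500 or more UMIs but under 200 genes, 83.4% of UMIs were of haemoglobin genes, and Cd24a stood at 145.5 CPM (71 UMIs in 62 barcodes, 113.7 to 183.6), above the 6.15 CPM that a count of 0 allows. Per 1000000 UMIs that were not haemoglobin, Cd24a was 878 (685 to 1107). Cd47 stood at 24.6 CPM in these barcodes (12 UMIs, 12.7 to 43.0), or 148 per 1000000 UMIs that were not haemoglobin (76.6 to 259). The other 7 members had 0 UMIs there.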

How the results depend on the processing

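No paired analysis was possible because no column of the bulk table could be placed in a group, and the edgeR fit planned for deferiprone against vehicle, with its replicate block, DESeq2, unfiltered and leave-one-out alternatives, was not run. Alternatives were run for 17 member ratios, of macrophages and DC over tumour-like cells, DC over macrophages and the Pf4/Arg1/Saa3 subsets, and not for those of T, B, cycling cells and the DC subsets. The 17 stayed within their counting intervals under 1000 or more UMIs a barcode, at most 10% mitochondrial UMIs, removal of doublets, stricter thresholds, and removal of barcodes of more than 1 class. The Cd47 ratio of Pf4/Arg1/Saa3-high over low macrophages, whose interval includes 1, was 1.09 with 1000 or more UMIs, against 0.881. The number of members at least 2-fold higher in DC than in macrophages was 1 in place of 2 with doublets removed, with stricter thresholds and without barcodes of more than 1 class, since Icosl then had under 20 UMIs. The number at least 2-fold higher in Pf4/Arg1/Saa3-high than in low macrophages was 1 in place of 0 with 1000 or more UMIs, where the Sirpa ratio was 2.09. In an alternative chosen after seeing the data, the Cd86 ratio of these subsets was 2.53 within the deeper macrophages, against 0.543 over all depths, and the Cd47 ratio 1.64, against 0.881. The cause was not tested. The T class held 7 barcodes with 1000 or more UMIs and 11 with stricter thresholds, and the B class 33 with 1000 or more UMIs, so depth limits what can be said of both. Thinning to 1000 UMIs moved 11 of 27 shares outside their intervals, and the second free RNA profile moved 20 of 27 estimates by over 1.5 times.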
